A study of Mus musculus with 2 samples.

Results

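The 10 genes described here encode the Myc, Max and Mxd network: Myc, Mycn, Mycl, Max, Mxd1, Mxi1, Mxd3, Mxd4, Mnt and Mlx. They were taken by gene name from a deposited RNA-seq count table of 52636 genes, and each name matched 1 row. The samples came from Hepa1-6, a cell line of a mouse liver carcinoma (strain C57bl/6), as 2 stable lines. One line was made with an IRF8 overexpression lentivirus, and the other with the vector control lentivirus. Both viruses carried GFP and puromycin resistance, and both lines were infected for 24 h and selected with 2 µg/ml puromycin. With 1 library per line, replicate spread could not be estimated, no p-value is given, and every interval covers counting error alone. The lines are called IRF8 cells and vector cells after their labels, and their libraries held 20042660 and 18118017 counted reads.

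Proteins of this network share a basic helix-loop-helix leucine zipper domain and bind DNA as pairs, mainly at the E-box CACGTG. Myc, Mycn and Mycl need Max as a partner to activate genes of growth, ribosome production and metabolism. The Mxd proteins and Mnt pair with Max as well but recruit Sin3 and histone deacetylases, so they repress many of the same sites. Mlx is a relative of Max that pairs with the glucose-responsive factors MondoA and ChREBP and with some of the repressors. In liver, Myc is a well-known oncogene, and its raised activity is a common feature of hepatocellular carcinoma.

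Irf8, the gene named in the label, had 1486 reads in IRF8 cells, against 1010 in vector cells. After scaling by TMM, a factor that sets most genes level between libraries, these were 71.1 CPM in IRF8 cells and 58.2 CPM in vector cells, CPM being the read count relative to the scaled library size. The ratio was 1.22 (95% counting interval 1.13 to 1.32), and since no source used here gives the transgene's sequence, this value is a weak check of the labels. Of 12 hepatocyte and hepatoma markers, 10 were measured, and the summed level of the 12 was 3722 CPM in IRF8 cells and 5578 CPM in vector cells. All 10 had a ratio below 1, among them Alb (albumin) at 0.376 and Afp (alpha-fetoprotein) at 0.468, and Alb had 1571 reads in IRF8 cells and 3474 in vector cells. Apoa1, too low to be measured, went the other way with 15 reads in IRF8 cells and 3 in vector cells. The 6 leukocyte markers summed to 7.89 CPM in IRF8 cells and 11.6 CPM in vector cells, and of these only the lysosomal gene Cd68 was measured, while Adgre1 and 2 others were at 0 in both. The 4 endothelial markers summed to 0.478 CPM in IRF8 cells and 0.749 CPM in vector cells. The 6 stellate and fibroblast markers summed to 5.98 CPM in IRF8 cells and 3.63 CPM in vector cells. The part of these shifts in the results below was not tested.

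Myc and Mnt were about 2-fold lower in IRF8 cells, Mycl was 1.54-fold higher, and Mxd1 was 1.62-fold lower; the ratios of the other 6 lay nearer to 1. The rule for a call was a ratio of scaled CPM of 2 or more, or its inverse, with a Clopper-Pearson 95% counting interval that left out 1. By this rule 2 of the 10 members were lower and 0 were higher. All 10 had a mean of at least 1 CPM over both libraries, the minimum set for a gene to count as measured. Among all 12468 measured genes, 454 (3.64%) were lower and 532 (4.27%) higher, 7.91% in either direction. With scaling by total counts those numbers were 351 lower and 684 higher, and without the trend on expression level 543 lower and 392 higher. The median log2 ratio of the 10 members was -0.25, against 0.01 for all measured genes, and the members ranged from -1.14 to 0.63. Of the 10, 6 had a ratio below 1 (Myc, Mycn, Max, Mxd1, Mxi1 and Mnt) and 4 above (Mycl, Mxd3, Mxd4 and Mlx). Each kept its side of 1 under every scaling tried, but not always beyond counting error. The 95% interval of Mycn included 1 under every scaling. So did that of Mlx with the chromosome median removed (1.07, 0.962 to 1.19) and that of Mxd4 with the expression trend removed (1.14, 0.984 to 1.32). In bulk RNA, fewer cells that express a gene and less RNA per cell cannot be told apart.

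**Figure D1:**
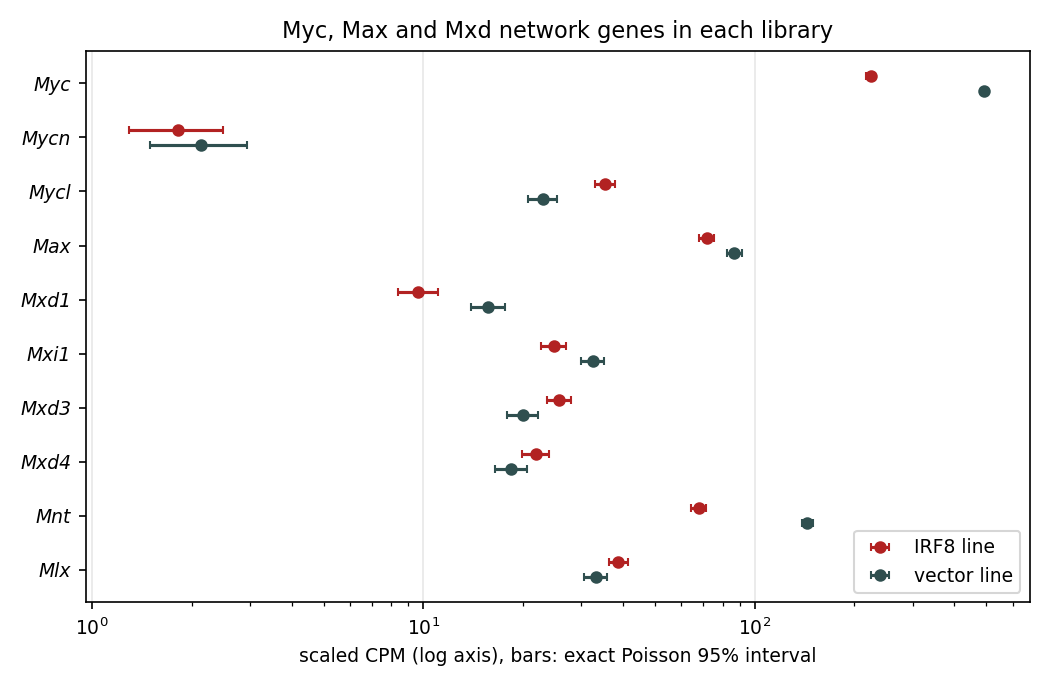
Level of each network gene in IRF8 cells (red) and vector cells (dark), in scaled CPM on a log axis, 1 library each; bars are exact Poisson 95% intervals. Myc stands at 224 CPM in IRF8 cells and 492 CPM in vector cells and Mnt at 67.9 CPM in IRF8 cells and 144 CPM in vector cells. The intervals of the libraries overlap for Mycn and for Mxd4.

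Among the Myc proteins, Myc was the main transcript in both libraries. Myc (ENSMUSG00000022346, plus strand of mm10 chromosome 15, from 61985391 to 61990374) had 4677 reads in IRF8 cells, against 8537 in vector cells. Scaled, this was 224 CPM (217 to 230, exact Poisson) in IRF8 cells and 492 CPM (481 to 502) in vector cells, so the intervals were far apart. Myc was 2.20-fold lower in IRF8 cells (2.12 to 2.28), and 2.77% of measured genes had a lower ratio. The neighbourhood of Myc was lower too. The median log2 ratio was -0.31 for the 458 measured protein-coding genes of chromosome 15 and -0.19 for the 45 that start within 10 Mb of Myc. Myc missed the 2-fold rule when the chromosome median was removed (ratio 0.566, 0.546 to 0.586), when the median of the 10 Mb around it was removed (0.517, 0.499 to 0.536), and when the trend on expression level was removed (0.511, 0.493 to 0.529). The part of the chromosome in the Myc value was not tested beyond these settings.

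Mycl (L-Myc, first known from small cell lung cancer) had a ratio above 1. It had 740 reads, or 35.4 CPM (32.9 to 38.0), in IRF8 cells and 398 reads, or 22.9 CPM (20.7 to 25.3), in vector cells. The ratio of 1.54 (1.37 to 1.75) excluded 1 but did not reach 2-fold, and 89.8% of measured genes had a lower ratio. Mycn (N-Myc, the neuroblastoma oncogene) was close to the minimum level, with 38 reads (1.82 CPM) in IRF8 cells and 37 reads (2.13 CPM) in vector cells. Its ratio of 0.853 (0.528 to 1.38) could not be told from 1 at this depth. Counts can also be compared between genes within a library, which needs no scaling. There were 6.32 Myc reads per Mycl read in IRF8 cells and 21.4 in vector cells, a 3.39-fold lower ratio (exact conditional 95% interval 2.98 to 3.86).

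Max, the shared partner, had 1497 reads, or 71.6 CPM (68.0 to 75.3), in IRF8 cells and 1508 reads, or 86.8 CPM (82.5 to 91.3), in vector cells. Its ratio was 0.824 (0.767 to 0.886), within the 2-fold range. Relative to Max, Myc was 1.81-fold lower (1.67 to 1.96): there were 3.12 Myc reads per Max read in IRF8 cells and 5.66 in vector cells. Mycl relative to Max was 1.87-fold higher (1.62 to 2.16).

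Of the repressors, Mnt was the lowest by ratio. Mnt, the widely expressed Max partner that opposes Myc, lies on chromosome 11 (ENSMUSG00000000282, 74830920 to 74845725, plus strand). It had 1419 reads, or 67.9 CPM (64.4 to 71.5), in IRF8 cells and 2507 reads, or 144 CPM (139 to 150), in vector cells. It was 2.13-fold lower (1.99 to 2.27), while the 941 measured protein-coding genes of its chromosome stood at a median of 0.13 (log2) and the 227 within 10 Mb of it 0.19. Against the genes around it Mnt was lower still, by -1.28 on the log2 scale. With scaling by total counts its ratio was 0.512, just short of the rule. In counts without adjustment for chromosome, Myc and Mnt kept nearly the same proportion. There were 3.30 Myc reads per Mnt read in IRF8 cells and 3.41 in vector cells, and the quotient of these, 0.968 (0.898 to 1.04), did not exclude 1. The 2 genes lay further apart with the chromosome median removed (0.566 for Myc, 0.430 for Mnt) and with the 10 Mb median removed (0.517 and 0.413).

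The 4 Mxd genes split into pairs, and none passed the rule. Mxd1 (Mad1), a repressor known to be induced as cells differentiate, had 202 reads in IRF8 cells, against 272 in vector cells, a ratio of 0.617 (0.512 to 0.743). Mxi1 (also called Mxd2) had 516 reads in IRF8 cells and 563 in vector cells, with a ratio of 0.761 (0.674 to 0.859). Both lay below 1 beyond counting error. Mxd3, the member of the family linked to proliferating cells, had 537 reads in IRF8 cells, against 347 in vector cells, a ratio of 1.29 (1.12 to 1.48). Mxd4 had 457 reads in IRF8 cells and 319 in vector cells, with a ratio of 1.19 (1.03 to 1.38). Relative to Mnt, Mxd3 was 2.73-fold higher (2.35 to 3.19) and Mxd4 2.53-fold higher (2.16 to 2.97) in IRF8 cells, so the make-up of the repressor transcripts differed between the libraries.

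Mlx had 811 reads, or 38.8 CPM (36.2 to 41.5), in IRF8 cells and 575 reads, or 33.1 CPM (30.5 to 35.9), in vector cells, a ratio of 1.17 (1.05 to 1.31). Relative to Max it was 1.42-fold higher (1.25 to 1.62). In GENCODE M21, 19.3% of the exonic bases of Mlx are shared with Psmc3ip on the other strand, which had 776 reads in IRF8 cells and 449 in vector cells. Mxd3 shares 4.43% of its exonic bases with Prelid1, a much more abundant gene on the other strand with 8110 reads in IRF8 cells and 8020 in vector cells. No source used here gives the strand setting of the counting, so the values of Mlx and Mxd3 are less certain than those of Myc, Mycl, Max and Mnt, whose exons overlap no other annotated gene. Of the 32-base words of each member's longest transcript, 18.3% occurred in another gene for Mlx and at most 3.82% for the other 9.

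**Figure D2:**
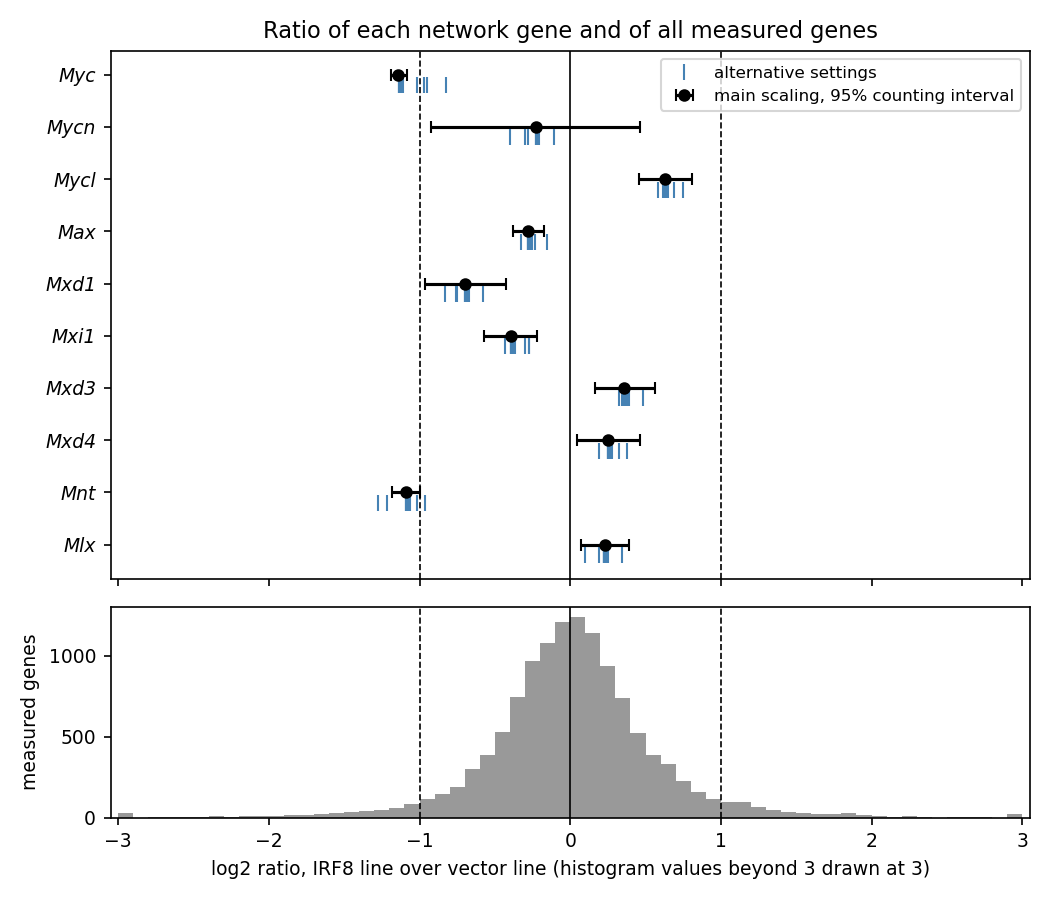
Upper panel: log2 ratio of each network gene, IRF8 cells over vector cells, with 95% counting intervals (black) and the values under the alternative settings (blue ticks). Lower panel: the same ratio for all 12468 measured genes; dashed lines mark 2-fold. Myc and Mnt lie beyond the lower line in the main scaling, and ticks of both fall inside it.

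Levels were compared between genes per length, as TPM, which divides counts by the deposited gene length. TPM is relative to the sum within a library, so it was used only for the order and the shares of the genes inside each one. In IRF8 cells Myc stood first at 237 TPM, followed by Max at 57.2, Mlx at 55.8, Mnt at 42.2, Mxd3 at 31.2, Mycl at 25.2, Mxi1 at 12.6, Mxd4 at 7.41, Mxd1 at 3.93 and Mycn at 1.59 TPM. Only Max and Mlx in this order had overlapping counting intervals (54.3 to 60.2 and 52.0 to 59.8 TPM). In vector cells the order was Myc at 472 TPM, Mnt at 81.4, Max at 62.9, Mlx at 43.2, Mxd3 at 22.0, Mxi1 at 15.0, Mycl at 14.8, Mxd1 at 5.78, Mxd4 at 5.65 and Mycn at 1.69 TPM. There the intervals of Mxi1 and Mycl overlapped, as did those of Mxd1 and Mxd4. By the deposited length, Mnt was thus above Max in vector cells and below it in IRF8 cells. That length joins the exons of all transcripts of a gene. It was 3598 bases for Max, whose longest transcript has 1942, and 4627 for Mnt, whose longest has 4590. For Mxd4 it was 8483 bases, against 4627 in its longest transcript. The order between genes therefore depends on the length used, and no other length was tried.

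By role, Myc, Mycn and Mycl held 55.6% of the summed TPM of the network in IRF8 cells and 67.4% in vector cells. In IRF8 cells Max held 12.1%, the 5 repressors 20.5% and Mlx 11.8%, against 8.69%, 17.9% and 5.96% in vector cells. Within the Myc proteins, Mycl made up 9.56% of the TPM in IRF8 cells and 3.03% in vector cells. Within the repressors, Mnt made up 43.3% and Mxd3 32.0% in IRF8 cells, against 62.7% and 16.9% in vector cells. In scaled CPM, which is set level between the libraries, the 10 genes summed to 521 in IRF8 cells and 867 in vector cells, of which Myc was 224 in IRF8 cells and 492 in vector cells. The 5 repressors summed to 150 CPM in IRF8 cells and 231 CPM in vector cells, a ratio of 0.649. Max had a ratio of 0.824 and Mlx of 1.17. A larger share in IRF8 cells thus did not mean a higher level for the repressors or Max.

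**Figure D3:**
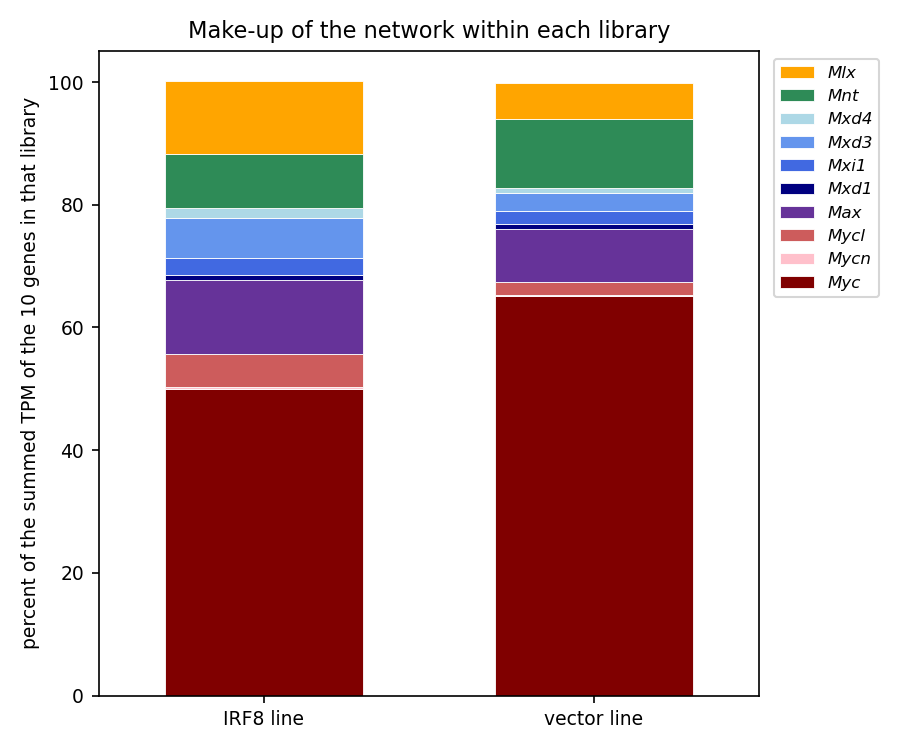
Share of each network gene in the summed TPM of the 10, in percent, within the library of IRF8 cells (left) and of vector cells (right), stacked by gene. Myc, Mycn and Mycl (red shades) together hold 55.6% in IRF8 cells and 67.4% in vector cells, Mnt 8.90% in IRF8 cells and 11.2% in vector cells, and Mlx 11.8% in IRF8 cells and 5.96% in vector cells.

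The E-box itself was looked up in the promoters of the members, since it is the site to which these proteins bind. RefSeq promoter windows on GRCm38.p6 (250 bases before to 50 after the start) were matched for 9 members in 11 windows; Myc was the member with no entry. CACGTG reads the same on both strands, and no other motif was searched. It was present for 4 of the 9 members, against 8.09% of 27025 genes with a window (7.15% of 32851 windows). The sites are shown with the bases around them, 5′ to 3′ on the strand of the gene, with the motif in capitals. They lie at position -3 for Max, -219 for Mxd4, -123 for Mnt and -40 for Mlx, counted from the start to the first base of the motif.
Max (chr12:76962234-76962263, minus strand): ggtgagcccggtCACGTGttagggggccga
Mxd4 (chr5:34187912-34187941, minus strand): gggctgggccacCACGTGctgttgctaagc
Mnt (chr11:74830789-74830818, plus strand): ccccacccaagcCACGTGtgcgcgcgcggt
Mlx (chr11:101087238-101087267, plus strand): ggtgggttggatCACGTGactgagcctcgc
The 4 genes with the motif had ratios of 0.824 (Max), 1.19 (Mxd4), 0.470 (Mnt) and 1.17 (Mlx), and so lay on both sides of 1. The windows of Mycn, Mycl, Mxd1, Mxi1 and Mxd3 did not hold these letters.

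Other partners of Max and Mlx differed little. Mga, which pairs with Max, had 960 reads in IRF8 cells, against 617 in vector cells, a ratio of 1.29 (1.17 to 1.43). Mlxip, which encodes MondoA, had 835 reads in IRF8 cells and 625 in vector cells, with a ratio of 1.11 (0.999 to 1.23). Mlxipl, which encodes ChREBP, had only 10 reads in IRF8 cells and 8 in vector cells and was not measured, and Bmyc and Mycs had 0 counts in both libraries, where 3 counts equal 0.143 CPM in IRF8 cells and 0.173 CPM in vector cells. Of 8 measured E-box factors outside the network, such as Usf1 and Tfe3, 0 passed the rule, against 7.91% of all measured genes. With 8 genes, 0 calls cannot be told from that share. The log2 ratios of these factors ran from -0.83 (Mitf) to -0.01 (Srebf1).

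Of the genes that control Myc, in lists of 15 to 22 measured genes, 1 passed the rule, against 7.91% of all measured genes. In single lists of 15 to 22 genes, 0 or 1 call cannot be told from that share. Of 22 measured regulators of its transcription and mRNA decay, 1 was lower and 0 higher, and the median log2 ratio was -0.09. The lower gene was Zfp36 (tristetraprolin, which speeds decay of AU-rich mRNAs), with 292 reads in IRF8 cells, against 1053 in vector cells, a 4.34-fold difference. Pvt1, the long non-coding RNA gene next to Myc and the only measured gene of the 11 that start within 1 Mb of it, had 472 reads in IRF8 cells and 483 in vector cells, with a ratio of 0.812 (0.713 to 0.923). Named after their values were seen, the Wnt effectors Lef1, Tcf7 and Tcf7l2 had ratios of 1.92 (1.37 to 2.72), 1.51 (1.44 to 1.58) and 0.808 (0.696 to 0.937), so they lay on both sides of 1, and Ctnnb1 (beta-catenin) had a ratio of 0.904. None of 17 genes of Myc protein turnover passed the rule: the range ran from Gsk3b, a kinase that marks Myc for degradation, at a ratio of 0.734 to Skp2, a ubiquitin ligase subunit, at 1.36. Gsk3b lies on chromosome 16, where the median log2 ratio of 348 measured protein-coding genes was -0.35. It differed by only -0.12 from the median of the genes within 10 Mb of it. Of 15 Myc coactivators 0 passed, with the chromatin remodeller Ep400 lowest at 0.563 and the acetyltransferase Kat2a highest at 1.47. Of 15 corepressor genes 0 passed, between Suds3 at 0.808 and Ncor1 at 1.48.

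Of the known targets that Myc activates, in lists of 31, 31 and 15 measured genes, 1 passed the rule, against 7.91% of all measured genes. That share includes many genes of low level. With a filter at 5 CPM, the calls over all genes were 221 higher and 266 lower, against 532 and 454 without it. Whether these lists hold fewer calls than genes of like level was not tested. Of 31 measured nucleolar and ribosome biogenesis genes, 0 were higher and 0 lower by the rule, and the median log2 ratio was -0.17. Among these, 21 had a ratio below 1. For scale, the median was -0.12 over all 2499 genes with a mean above 100 CPM and 0.02 over the 6673 between 10 and 100 CPM. The lowest was Mrto4 at 0.645 and the highest the nucleolar chaperone gene Npm1 at 1.28, but 39.0% and 45.2% of their 32-base words occur in another gene. Of 31 measured metabolism and translation targets, 1 was lower and 0 higher (median -0.08). This gene was the amino acid transporter Slc7a5, also a target of the stress factor ATF4, with 2164 reads in IRF8 cells, against 4652 in vector cells, 2.59-fold lower. Odc1, the polyamine enzyme often used as a Myc target, was named after its value was seen. It had a ratio of 0.650 (0.631 to 0.670), short of the rule, and 51.4% of its words are shared. Of 15 measured cell cycle targets 0 passed (median 0.02), between the E2F gene E2f2 at 0.518 and the telomerase gene Tert at 1.79, while Ccnd2 had 0 counts in both libraries. Over the settings tried, the median ran from -0.17 to -0.04 for the nucleolar list, from -0.11 to 0.05 for metabolism and translation, and from -0.02 to 0.14 for the cell cycle list.

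Of the 12 measured genes that Myc is known to repress, 3 (25.0%) were lower and 0 higher by the rule, against 3.64% lower and 4.27% higher over all measured genes, and the median log2 ratio was -0.45. In a list this short, 0 higher genes cannot be told from that share. The list was chosen with earlier results of these data known. Its share of lower genes therefore describes the list and is not a test against all genes. The 3 were Ddit3, the stress factor CHOP, at 9.21-fold lower (628 reads in IRF8 cells, 4805 in vector cells), the stress-induced growth arrest gene Gadd45a at 5.86-fold lower (183 in IRF8 cells, 891 in vector cells) and the hypoxia-induced gene Ndrg1 at 4.75-fold lower (2042 in IRF8 cells, 8052 in vector cells). All 3 are also known as stress-induced genes, and 17.4% of the 32-base words of Gadd45a occur in another gene. The list's 4 cell cycle inhibitor genes, named after their values were seen, lay on both sides of 1, with ratios of 0.712 for Cdkn2b, 0.813 for Cdkn1a, 0.939 for Cdkn1b and 1.13 for Cdkn2c. Ndrg1 lies on chromosome 15, as do Klf10 and Skp2.

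Among the 13 measured targets of MondoA and ChREBP, 4 (30.8%) were lower and 1 (7.69%) higher, against 3.64% and 4.27% of all measured genes. This list, too, was chosen with earlier results of these data known, so its shares are a description and not a test. Txnip, an arrestin-like brake on glucose uptake and a standard readout of MondoA with Mlx, had 1810 reads in IRF8 cells, against 5307 in vector cells, 3.53-fold lower, with 19.8% of its 32-base words shared with another gene. Its relative Arrdc4 was 2.22-fold lower (387 reads in IRF8 cells, 715 in vector cells). Klf10, a zinc finger factor gene, was 2.17-fold lower (1157 in IRF8 cells, 2085 in vector cells). Khk, the fructokinase, had 143 reads in IRF8 cells, against 53 in vector cells, a ratio of 2.24 (1.62 to 3.13). The lipid synthesis genes of the list, named after their values were seen, did not go one way. Elovl6, Fasn, Acly and Acaca had ratios of 1.90, 1.42, 1.37 and 1.18, while the desaturase gene Scd1 had 0.612 (0.587 to 0.637) and the malic enzyme gene Me1 0.633 (0.606 to 0.661). The values of Acaca and Me1 are less certain, since 56.6% and 41.7% of their 32-base words occur in another gene. For Scd1 this was 8.21% and for Elovl6 7.50%. The median log2 ratio of the list was 0.17, with a range over settings of -0.25 to 0.29. Of the 10 called genes in the lists of partners, regulators and targets, 6 had a RefSeq window and 2 of these held the E-box, at position -193 for Arrdc4 and -71 for Khk, and they moved in opposite directions.
Arrdc4 (chr7:68749414-68749443, minus strand): aaaggtcctgtgCACGTGcactatggtgtc
Khk (chr5:30921476-30921505, plus strand): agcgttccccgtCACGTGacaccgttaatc

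**Figure D4:**
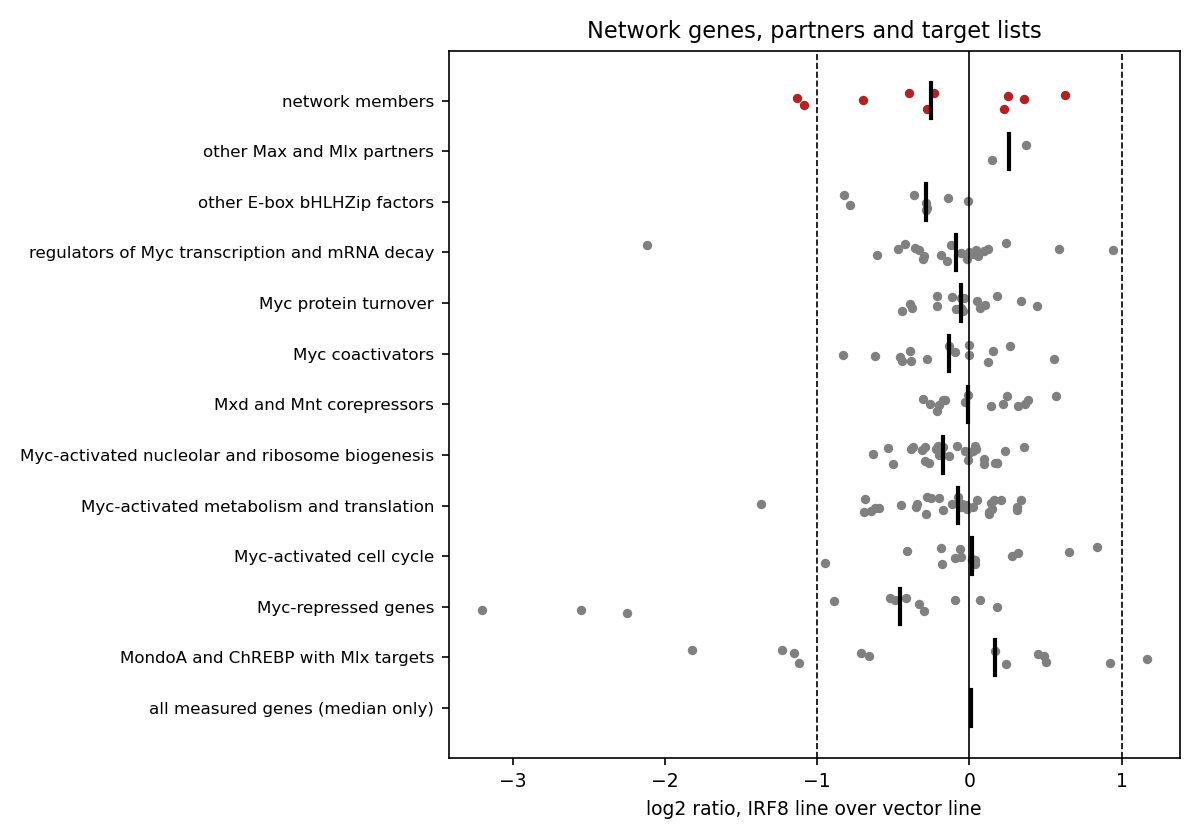
Log2 ratio, IRF8 cells over vector cells, of the measured genes of each list (points) with the list's median (black line); dashed lines mark 2-fold. The Myc-activated lists centre between -0.17 and 0.02, and the called genes sit mainly among the Myc-repressed genes and the Mlx targets.

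Along chromosome 15 the ratios were not even. In the 10 Mb before Myc the median over 34 measured protein-coding genes was -0.27 (log2), and in the 10 Mb from its start 12 genes, Myc included, had a median of -0.16. From 10 to 20 Mb and from 20 to 30 Mb beyond Myc the medians were -0.63 (140 genes) and -0.56 (63 genes), and from 30 to 40 Mb 0.02 (87 genes). Myc at -1.14 differed by -0.95 from the median of the genes within 10 Mb of it, and Pvt1 at -0.30 differed by -0.07 from the same kind of median.

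**Figure D5:**
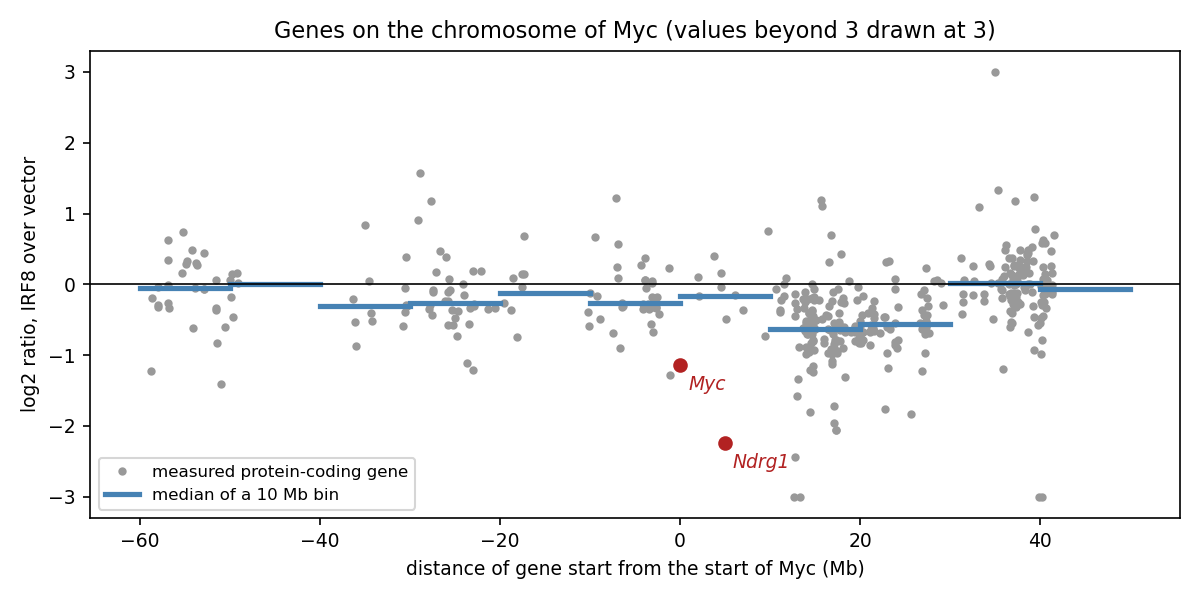
Log2 ratio, IRF8 cells over vector cells, of the 458 measured protein-coding genes on the chromosome of Myc, by distance from the start of Myc in Mb; blue lines are medians of 10 Mb bins. Myc and Ndrg1 (red) lie below the medians of their bins, and the 2 lowest bins are 10 to 30 Mb beyond Myc.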

How the data were processed

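The table, as deposited by the authors, held whole-number read counts per gene for 2 libraries, 1 per line, with no normalization. HISAT2 2.0.5, featureCounts 1.5.0-p3 and build mm10 are named in the submitters' processing notes; no source used here gives the strand setting, annotation release or treatment of multiply mapped reads. Library preparation used a NEBNext Ultra RNA kit, per the labels' protocols.

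TMM scaling (edgeR 4.0.16, R 4.3.3; factors 1.04 for IRF8 cells and 0.958 for vector cells) gave CPM. TPM used the deposited gene length, which equals the exon union of GENCODE M21 for 9 of the 10 members and is shorter for Mxi1. Ratios carry Clopper-Pearson intervals, levels exact Poisson intervals, and ratios between genes exact conditional intervals (scipy 1.17.1). Reads were treated as independent molecules, although PCR copies are not. With 1 library per line edgeR's quasi-likelihood test could not be fitted. DESeq2 1.42.0 size factors were an alternative. Members, 11 gene lists and markers were chosen with earlier results of these data known. From each list, up to 4 genes past the rule were named, or the highest and lowest where none passed. One gene counted in a list is not reported here.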

Additional observations from a re-analysis of the deposited data

How the results depend on the processing

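Myc was lower in each of the 11 settings that give its ratio, but a change of filter or of interval level cannot move a ratio. Its ratio was 0.495 with total-count scaling and 0.511 with the expression trend removed. It was 0.566 with the chromosome median removed and 0.517 with the median of 10 Mb removed, an alternative chosen after seeing the data. The members called lower, 2 in the main setting, were 1 with total-count scaling (Mnt lost), 1 with the expression trend removed, 1 with the chromosome median removed and 1 with the 10 Mb median removed (Myc lost in each), and 0 at a fold threshold of 4. At a threshold of 1.5, 3 members were lower and 1 was higher. Over all genes the calls, 532 higher and 454 lower, were 873 and 800 with no expression filter, 221 and 266 with a filter at 5 CPM, 1302 and 1175 at 1.5-fold, and 69 and 91 at 4-fold. Over the 11 lists together, with 1 higher and 9 lower, they were 3 higher with total-count scaling, 0 higher with the filter at 5 CPM, 6 higher and 24 lower at 1.5-fold, and 0 and 4 at 4-fold. As a share of the network's counts, without division by length, the Myc proteins held 50.1% in IRF8 cells and 59.6% in vector cells, Max 13.7% in IRF8 cells and 10.0% in vector cells, the repressors 28.7% in IRF8 cells and 26.6% in vector cells, and Mlx 7.44% in IRF8 cells and 3.82% in vector cells. Each of these 4 classes differed between the lines in the same direction as in TPM. The 0.552 for Myc against Max was 0.295 against Mycl, 0.738 against Mxd1, 0.354 against Mxd3, 0.382 against Mxd4, 0.968 against Mnt and 0.388 against Mlx. The cause of these shifts was not tested. Of the other results, 39 of 419 values moved. A ratio moved if it left its main counting interval, and a median or a count if its change passed a set limit. Many values could not move, such as ratios under a change of filter or interval level. The tally is therefore not a measure of robustness. No paired analysis was possible because each line has 1 library, and for the same reason no replicate could be left out. At 38 reads in IRF8 cells and 37 in vector cells, Mycn is limited by depth.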
